A study of Mus musculus with 10 samples.

Results

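The Dlk1-Dio3 cluster is an imprinted domain on mouse chromosome 12, and 6 of its genes were examined here: the noncoding genes Meg3, Rian and Mirg, and the protein-coding genes Dlk1, Rtl1 and Dio3. They were chosen by symbol, and each matched exactly 1 of the 55487 gene rows by its Ensembl gene ID under GENCODE mouse vM21 names. The RNA came from mouse embryonic stem cells of the E14 line, with no perturbation named in the labels, in 1 group of 3 RNA-seq replicates, numbered 1 to 3 in the sample titles. Every sample was labelled as grown in DMEM with 15% serum, LIF, a GSK inhibitor at 3 µM and a MEK1/2 inhibitor at 1 µM. The other 7 samples of the series, R-loop maps made with a nuclease fused to an RNase H domain and their controls, were not analysed here. There is thus no second condition, and the comparisons are between genes within the same libraries, with the spread over replicates as the error. Nothing in the labels says whether the replicates were separate cultures, so the spread may be technical.

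In an imprinted domain the copy inherited from one parent is transcribed and the other is silent. On the maternal chromosome of this cluster the noncoding RNAs are made, from Meg3 at one end through Rian to Mirg, while the paternal chromosome expresses Dlk1, Rtl1 and Dio3. A differentially methylated region between Dlk1 and Meg3 controls which set is active, and Meg3 is known to be silenced in some mouse pluripotent stem cell lines. Meg3 is a long noncoding RNA, Rian is a host of C/D box small nucleolar RNAs, and Mirg is a host of microRNAs. Dlk1 encodes a transmembrane relative of the Notch ligands, Rtl1 a protein derived from a retrotransposon, and Dio3 the deiodinase that inactivates thyroid hormone. The tables hold no counts by allele, so maternal and paternal are used here as names for the gene sets and were not measured.

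The upstream sequences of Meg3 and Dlk1 are shown because these genes lie on either side of the control region and belong to the expressed and the near-silent set. Each is the 250 bases before the RefSeq start (build GRCm38.p6, plus strand), chr12:109540746-109540995 for Meg3 and chr12:109452573-109452822 for Dlk1. Capitals mark matches on either strand to TGACGTCA, the cyclic AMP response element, and to TATAAA, a core promoter element.
Meg3: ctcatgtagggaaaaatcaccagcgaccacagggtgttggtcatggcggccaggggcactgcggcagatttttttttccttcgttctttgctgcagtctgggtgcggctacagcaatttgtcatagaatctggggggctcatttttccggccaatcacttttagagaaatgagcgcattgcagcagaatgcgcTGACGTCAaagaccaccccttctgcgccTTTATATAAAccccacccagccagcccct
Dlk1: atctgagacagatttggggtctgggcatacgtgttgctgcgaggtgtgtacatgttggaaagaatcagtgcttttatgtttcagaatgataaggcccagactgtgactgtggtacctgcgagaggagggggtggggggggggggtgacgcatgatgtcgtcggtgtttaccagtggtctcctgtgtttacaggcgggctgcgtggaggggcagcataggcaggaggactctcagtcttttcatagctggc

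The Meg3 window held 1 TGACGTCA, beginning 57 bases before the start, and 2 overlapping TATAAA matches, on opposite strands, beginning 29 and 25 bases before it. The Dlk1 window held neither. Of 32817 RefSeq promoter windows of the same length, 1.55% held TGACGTCA and 12.4% held TATAAA. The Meg3 window also held 1 CCAAT and 1 TGCCGC, the hexamer bound by ZFP57 when methylated, found on either strand in 33.8% and 8.68% of windows. CpG dinucleotides numbered 10 in the Meg3 window and 8 in the Dlk1 window, against a median of 6 over all windows. Among the other members, the Rian window held none of the 4 motifs and 0 CpG. The Mirg window held 1 CCAAT and 10 CpG, and the Dio3 window 1 TATAAA, 2 CCAAT and 21 CpG. These windows end at RefSeq starts. The Dlk1 window ends directly before the gene start given below, and the others differ from theirs. The Meg3 window ends at 109540995, just before the gene start at 109541001. The Mirg window (109734731 to 109734980) lies inside the gene, and the Dio3 window (110278980 to 110279229) runs past the gene start at 110279068. The Rian window ends at 109603944, just past the gene start at 109603940. Meg3 had a further RefSeq start downstream, whose window held none of the motifs and 0 CpG. These matches describe letters in a window and show nothing about binding.

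All 3 noncoding members were expressed, and the 3 coding members were at or near 0. Levels are given as TPM, which scales counts by transcript length and library size so that genes can be compared within a library. Rian, Meg3 and Mirg passed a limit of 1 TPM in the mean of the replicates, while 19.8% of all genes, 2.26% of lincRNA genes and 44.1% of protein-coding genes passed it. Replicates 1, 2 and 3 had library totals of 11420425, 6467405 and 5787357 estimated counts, and 3 counts per library was taken as the floor that a count of 0 allows. RNA was measured in bulk, so fewer cells expressing a gene and less RNA per cell cannot be told apart. Pluripotency markers were present (8 of 8 at a mean TPM of at least 1, 918.1 to 1200.3 TPM summed). Of the other marker lists, 1 of 8 feeder fibroblast, 1 of 6 trophoblast, 0 of 6 primitive endoderm and 1 of 5 neural genes reached that level, with 1.35 to 3.45, 4.41 to 6.52, 0.51 to 1.16 and 10.7 to 16.2 TPM summed. The single genes were Thy1 (2.503 TPM), Tfap2c (4.08 TPM) and Tubb3 (11.6 TPM), while the fibroblast genes Col3a1, Dcn, Lum and Postn had 0 counts in every replicate.

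**Figure D1:**
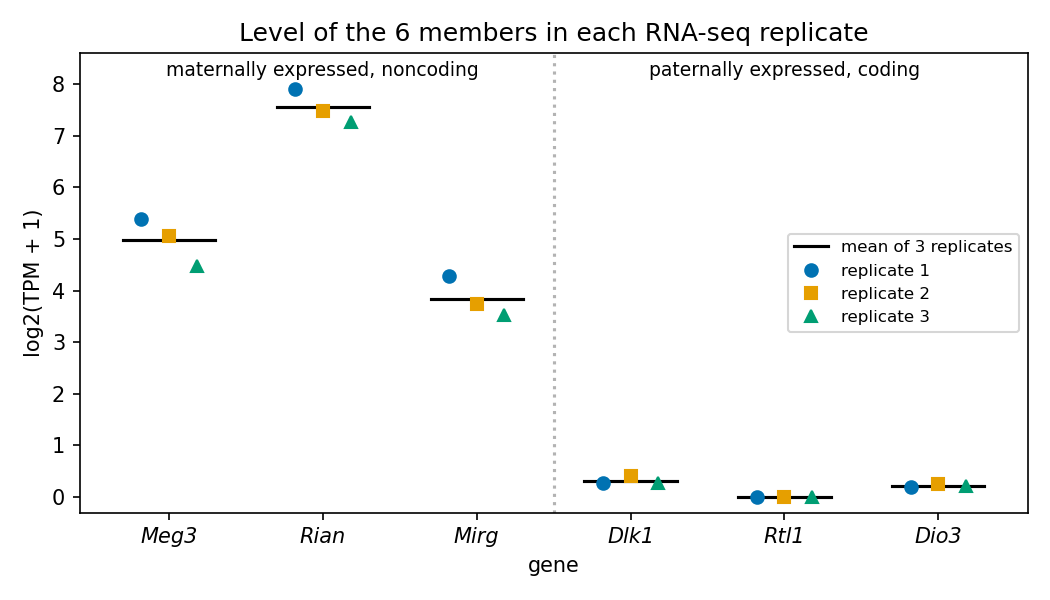
Level of each of the 6 genes as log2(TPM + 1) on the vertical axis, by gene on the horizontal axis. Symbols are the 3 RNA-seq replicates and bars their means. Meg3, Rian and Mirg lie above 3 in every replicate, and Dlk1, Rtl1 and Dio3 lie below 0.5.

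Rian was the highest of the 6. It lies at chromosome 12, 109603940 to 109661716 on the plus strand (ENSMUSG00000097451, annotated as a processed transcript), 62.9 kb from the start of Meg3. Its level was 237, 177 and 153 TPM in replicates 1, 2 and 3, from 10305, 5751 and 4571 estimated counts. The mean was 189 ± 43.3 TPM (SD, n = 3), which placed it 294th of all genes, and 171st of the 47841 genes with an effective length of at least 100 nt in every replicate. Of all counts in a library, Rian took 0.0902%, 0.0889% and 0.0790% in replicates 1, 2 and 3. The 95% Wilson intervals of these shares ran from 0.0885 to 0.0920, from 0.0867 to 0.0912 and from 0.0767 to 0.0813. Such intervals cover counting error only. In these shares replicate 3 lay below the other 2 beyond that error. After the TMM scaling described below, Rian had 863, 867 and 861 CPM in replicates 1, 2 and 3.

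Meg3, at chromosome 12, 109541001 to 109571726 on the plus strand (ENSMUSG00000021268, lincRNA), was second. It had 41.0, 32.3 and 21.2 TPM in replicates 1, 2 and 3, from 2872, 1472 and 871 estimated counts, with a mean of 31.5 ± 9.88 TPM (SD, n = 3). Part of these counts was fractional, so some reads were divided between Meg3 and other genes. Mirg, at chromosome 12, 109729764 to 109749460 on the plus strand (ENSMUSG00000097391, lincRNA), had 18.3, 12.3 and 10.5 TPM from 619, 289 and 307 counts, with a mean of 13.7 ± 4.11 TPM (SD, n = 3). The lowest Meg3 replicate lay above the highest Mirg replicate, and the lowest Rian replicate above the highest Meg3 replicate, so these levels did not overlap.

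The order Rian, Meg3, Mirg held within each library. On the TPM scale Rian exceeded Meg3 by 5.79-fold, 5.50-fold and 7.20-fold in replicates 1, 2 and 3, and Meg3 exceeded Mirg by 2.24-fold, 2.62-fold and 2.03-fold. As differences of log2(TPM + 1), Rian was above Meg3 by 2.57 ± 0.19 (SD, n = 3), and Mirg minus Meg3 was -1.13 ± 0.18 (SD, n = 3). Both differences were many times their spread. An exact two-sided sign permutation over 3 replicates gave p = 0.25 for each, which is the smallest p that 3 replicates allow. On counts scaled by library size alone (CPM), the differences were 2.06 and -2.001.

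The coding members were at or near the floor. Dlk1 (ENSMUSG00000040856, chromosome 12, 109452823 to 109463336, plus strand) had 9, 6 and 3 counts in replicates 1, 2 and 3, giving 0.21, 0.33 and 0.21 TPM. The exact Poisson 95% intervals of those counts were 4.12 to 17.1, 2.20 to 13.1 and 0.619 to 8.77, which overlap. Dio3 (ENSMUSG00000075707, chromosome 12, 110279068 to 110281097, plus strand) had 6, 5 and 4 counts, giving 0.14, 0.20 and 0.16 TPM. Dlk1 and Dio3 did not differ beyond these counting errors. Rtl1 (ENSMUSG00000085925, chromosome 12, 109589193 to 109600330, minus strand) had 0 counts in all 3 replicates, which allows at most 0.0178, 0.0254 and 0.0254 TPM at the floor. Of all protein-coding genes, 26.2% likewise had 0 counts in every replicate.

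Set against each other, the median log2(TPM + 1) of the 3 noncoding members exceeded that of the 3 coding members by 5.20, 4.79 and 4.26 in replicates 1, 2 and 3. In every replicate these medians were the values of Meg3 and Dio3. The size of the difference thus rests on 6, 5 and 4 counts of Dio3 and on the 1 added to each TPM. The mean difference was 4.75 ± 0.47 (SD, n = 3; exact two-sided sign permutation p = 0.25, the smallest possible). Every noncoding member lay above every coding member in each library. Meg3 was 195, 97.7 and 101 times Dlk1 in TPM, and 292.5, 161.3 and 132.7 times Dio3, ratios that rest on 9 counts or fewer of the coding gene. Against the floor of Rtl1 in each library, Rian was at least 6017-fold higher, Meg3 at least 836-fold and Mirg at least 412-fold. Together the noncoding members held 13796, 7512 and 5749 counts, and the coding members 15, 11 and 7.

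The annotation places 118 genes from Dlk1 to Dio3, and 116 of them had a row in the tables. Of these rows 94 were small RNA genes, most of which the tables cannot measure, as described below. Over all 55487 genes, 21899, 20702 and 20073 had counts in replicates 1, 2 and 3, each taken alone. The share of all genes with counts in any replicate, or past the floor in every replicate, was not taken. The numbers that follow therefore do not tell whether the cluster is sparse or ordinary. Counts in any replicate were found in 14 of the 116, and 6 had more than 3 counts in every replicate: Meg3, Rian, Mirg, Dio3 and 2 further noncoding genes. These were B830012L14Rik (chromosome 12, 109695586 to 109702587, plus strand, lincRNA) and Gm37899 (109668869 to 109677585, plus strand), both between Rian and Mirg. B830012L14Rik had 7.98, 5.88 and 4.75 TPM in replicates 1, 2 and 3, and Gm37899 had 2.64, 1.90 and 1.53 TPM. Their counts were fractional, but summed to 1346, 684 and 542 over the pair, so the division of reads between these neighbours is uncertain. On the plus strand, from Meg3 to Mirg, the mean TPM level thus stood at 31.5 in Meg3, 189 in Rian, 2.02 in Gm37899, 6.20 in B830012L14Rik and 13.7 in Mirg, with no steady rise or fall with distance.

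**Figure D2:**
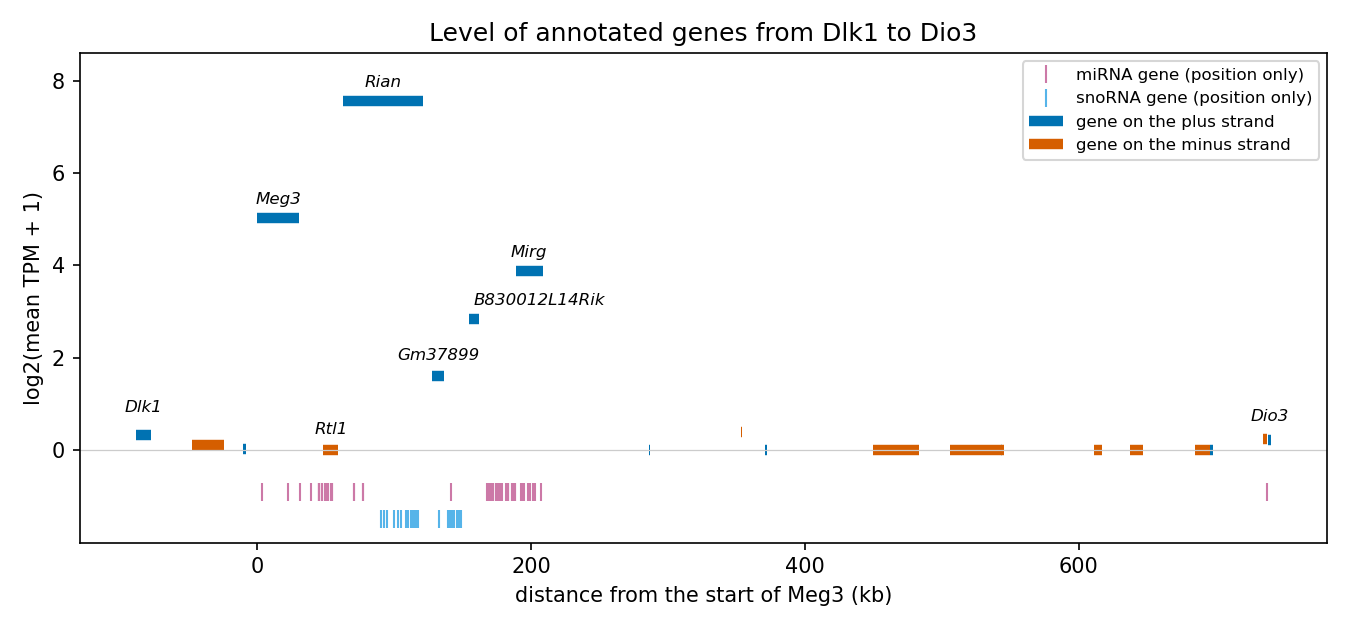
Genes from Dlk1 to Dio3 by distance from the start of Meg3 in kb (horizontal axis) and log2(mean TPM + 1) over 3 replicates (vertical axis), as bars spanning each gene and coloured by strand. Ticks below 0 mark positions of miRNA and snoRNA genes, with no level shown. The 5 genes that rise clearly above 0 are on the plus strand between 0 and about 209 kb.

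The plus strand carried nearly all of the signal. Its 99 rows held 15159, 8211 and 6298 counts in replicates 1, 2 and 3, and the 17 rows on the minus strand held 10.8, 4.92 and 6.21, or 0.0764% ± 0.0199 (SD, n = 3) of the cluster. Rtl1 lies on the minus strand, and an antisense RNA is known to cross it. Whether reads were assigned by strand is not stated, and the libraries were made with a directional kit. Dio3os, the minus-strand noncoding neighbour of Dio3, had 7, 1 and 1 counts, and Gm34081, between Dlk1 and Meg3, had 1 count in every replicate. Of the 16 other genes of at least 200 nt that were neither members nor small RNA genes, 2 passed the floor in every replicate, 4 had some counts and 10 had 0. The matching shares over all such genes were not taken. Rian took 67.9%, 70.0% and 72.5% of all counts of the cluster in replicates 1, 2 and 3, Meg3 took 18.9%, 17.9% and 13.8%, and Mirg 4.08%, 3.52% and 4.87%.

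The small RNAs that the cluster is known for were almost absent from these tables as genes of their own. No small RNA gene of 94 in the cluster passed 3 counts in every replicate. Of 67 miRNA genes, 2 had any count, Mir1197 with 1, 1 and 0 and Mir453 with 0, 1 and 0 in replicates 1, 2 and 3. Of 23 snoRNA genes, 1 had any count, DQ267102 with 0.98 in replicate 2. Over all genes of these types, 0.0906% of miRNA genes and 8.76% of snoRNA genes passed 3 counts in every replicate. Any count was found in 2.58% of miRNA genes and in 10.8% of the 297 snoRNA genes no longer than the longest of the cluster, 82 nt. Effective length, the number of positions a fragment can take, was 0 in every replicate for 22 of the 23 snoRNA and 34 of the 67 miRNA genes. The highest was 1.03 nt among the snoRNA genes and 11.6 nt among the miRNA genes. The tables thus give no measure of most of these small RNAs and no reliable measure of the rest.

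Some of these microRNAs lie inside Rtl1 itself, and their sequences are shown because that gene had 0 counts while Meg3 and Rian, on either side of it, had at least 871 counts in every replicate. RefSeq places 11 mature microRNAs of 6 hairpins within the coding exon of Rtl1 (chromosome 12, coding part 109590172 to 109595403), on the opposite strand. The reverse complement of each of the 11 was found whole in the Rtl1 transcript, which their position on the opposite strand of its exon fixes in advance. Capitals mark the seed, bases 2 to 8. This set was chosen after the values were seen, and all 6 hairpin genes had 0 counts in every replicate.
miR-431-5p: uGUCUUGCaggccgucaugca
miR-431-3p: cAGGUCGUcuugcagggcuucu
miR-433-5p: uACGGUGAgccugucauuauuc
miR-433-3p: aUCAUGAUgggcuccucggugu
miR-127-5p: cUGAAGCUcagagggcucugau
miR-127-3p: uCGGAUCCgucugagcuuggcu
miR-434-5p: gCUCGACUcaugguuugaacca
miR-434-3p: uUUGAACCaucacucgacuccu
miR-432: uCUUGGAGuagaucagugggcag
miR-136-5p: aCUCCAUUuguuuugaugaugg
miR-136-3p: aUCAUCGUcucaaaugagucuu

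None of these 11 shared a seed with another microRNA of the cluster. Over the whole cluster RefSeq gave 113 mature names with 104 distinct seeds, of which 9 were held by 2 names each. The genes with counts are shown by the same convention, because their few reads are all that the miRNA genes of the cluster held. Whether those reads came from the microRNAs themselves was not tested. Mir1197 gives a 5p arm that shares its seed with miR-758-5p, and miR-453 shares its seed with miR-496a-5p.
miR-1197-5p: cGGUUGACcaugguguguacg
miR-1197-3p: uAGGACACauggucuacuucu
miR-453: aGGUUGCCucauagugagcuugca

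Among annotated lincRNA genes the members ranked high. Of 5614 such genes, 1283 had a mean TPM above 0 and 127 reached 1. Meg3 ranked 6th, Mirg 13th and B830012L14Rik 34th, and Rian, which carries another annotation, would have ranked 3rd. Nearest in mean level to Rian were Gm23925 (356 ± 92.1 TPM) and Malat1 (325 ± 97.8) above and Gm10076 (125.8 ± 29.0) and Lncenc1 (100.4 ± 25.7) below, each SD over n = 3. Nearest to Meg3 were Lncenc1 and Rmrp (57.6 ± 44.4) above and Bc1 (24.1 ± 8.88) and Platr10 (18.2 ± 5.01) below. Nearest to Mirg were Gm32885 (15.4 ± 2.04) and Halr1 (15.2 ± 1.79) above and C78283 (13.6 ± 3.90) and Neat1 (10.4 ± 4.13) below. In the mean, Meg3 did not differ from Rmrp or Bc1, nor Mirg from its 4 neighbours, by more than the SDs given. Those SDs include shifts between libraries that most genes share. These genes were not compared within each library, so smaller differences cannot be told. Gm23925 and Bc1 have effective lengths of 13.3 and 37.9 nt in replicate 1, where TPM is uncertain. The 3 noncoding members together held 11.7%, 11.8% and 11.1% of all counts in lincRNA and processed transcript genes.

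**Figure D3:**
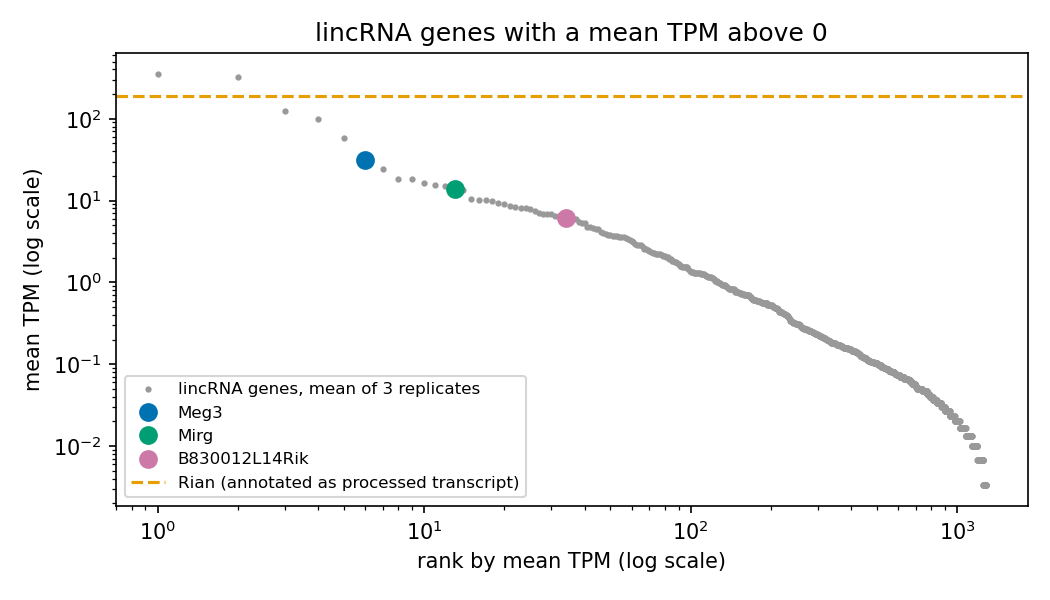
Mean TPM over 3 replicates (vertical log axis) against rank (horizontal log axis) for the 1283 lincRNA genes with a mean TPM above 0, each a grey point. Meg3, Mirg and B830012L14Rik are marked at ranks 6, 13 and 34, and the dashed line is the level of Rian, which only 2 lincRNA genes exceed.

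The spread between replicates depended on the scale. On the TPM scale all 5 noncoding genes were highest in replicate 1 and lowest in replicate 3, an order shared by 67.2% of all genes at a mean TPM of at least 1. Genes with an effective length under 100 nt held 60.3%, 65.8% and 63.9% of all TPM in replicates 1, 2 and 3. With TPM recomputed without them, all 5 noncoding genes kept that order, and the ratio of highest to lowest was 1.41 for Rian, 1.75 for Meg3 and 1.59 for Mirg. The median deviation from a gene's own mean was 0.32, -0.01 and -0.30 (log2 TPM) in replicates 1, 2 and 3 over 8292 genes whose counts averaged 100 or more. The Rian deviations less these medians were 0.03, -0.06 and 0.02, and those of Meg3 were 0.11, 0.09 and -0.22. In CPM scaled by TMM, a normalization that aligns the bulk of genes between libraries, Rian had 863, 867 and 861 in replicates 1, 2 and 3, a ratio of highest to lowest of 1.01, where its TPM gave 1.55. Of 12577 genes tested, 10 had a smaller deviance than Rian.

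Meg3 had the widest spread of the 5 on the TMM scale. Its values were 241, 222 and 164 TMM-scaled CPM in replicates 1, 2 and 3, and replicate 3 deviated from the gene's mean by -0.33 (log2). The 830 genes of the same length class (1 of 10) had a median deviation of -0.02 in that library, and 8.55% of them lay lower than Meg3. Replicate 3 stood apart over other genes too: the longest class had a median deviation of -0.15 there and 0.11 in replicate 1, and the biological coefficient of variation over all genes tested was 0.162, and 0.0906 without replicate 3. Mirg had 51.9, 43.5 and 57.8, with replicate 2 lowest. Gm37899 had 51.5, 46.6 and 46.9, and B830012L14Rik 61.2, 56.5 and 55.2. None of the 5 passed the test for variation beyond genes of like abundance (edgeR goodness-of-fit, Benjamini-Hochberg adjusted p = 1.00 for each), which 1.84% of the 12577 genes passed. The smallest unadjusted p was that of Meg3, 0.256, and 6.96% of genes had an unadjusted p under 0.05. Dlk1, Rtl1 and Dio3 did not pass the filter on low counts and were not tested.

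**Figure D4:**
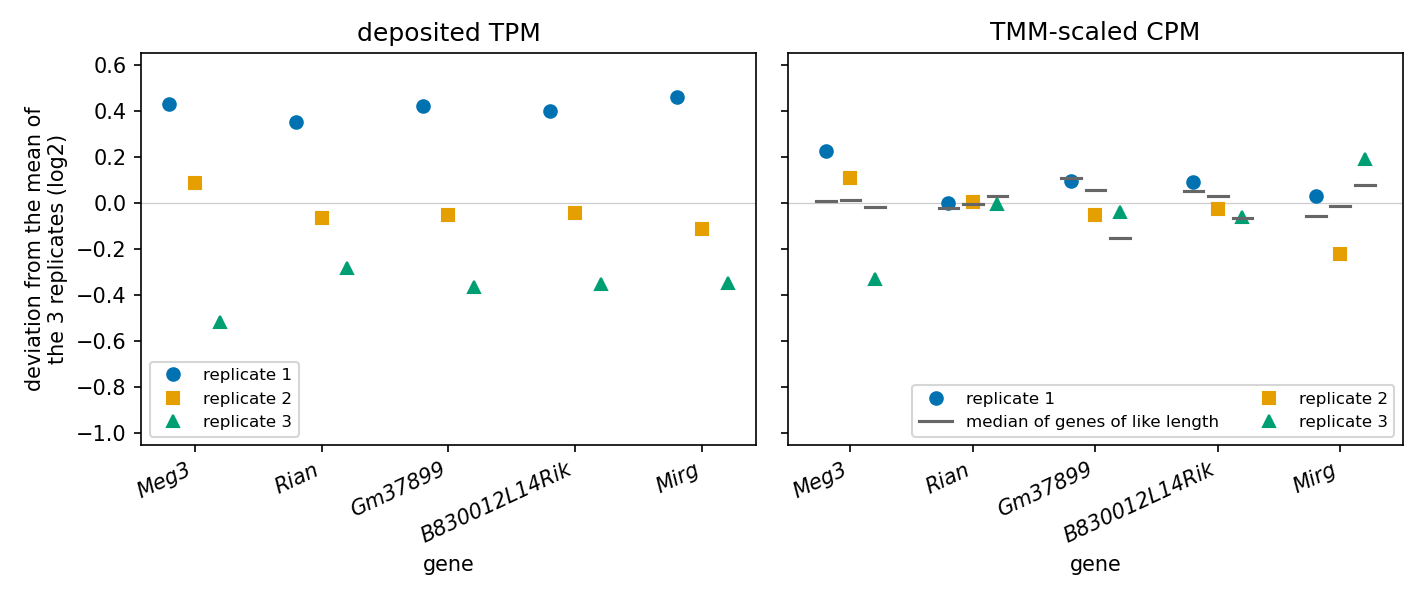
Log2 difference between each replicate and the 3-replicate mean (vertical axis) for the 5 noncoding genes, on deposited TPM (left) and TMM-scaled CPM (right). Grey bars on the right are medians of genes of like length. On the left every gene runs from replicate 1 at the top to replicate 3 at the bottom, while on the right Rian stays within 0.01 of 0 and replicate 3 of Meg3 lies at -0.33.

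The estimated mix of transcripts also varied. The length given for a gene is a mean over its transcripts weighted by their estimated shares, so it moves only when that mix moves. For Meg3, with 11 transcripts, it was 2723, 2550 and 2295 nt in replicates 1, 2 and 3, shortest where its level was lowest. For Rian it was 1741, 1854 and 1709 nt and for Mirg 1383, 1385 and 1678 nt, a ratio of longest to shortest of 1.08 and 1.21 against 1.19 for Meg3. Rian had 69 transcripts in the tables, of which 48 were absent from the annotation used here, and 4 of the 5 transcripts of B830012L14Rik were absent too. The gene spans given above for these genes may therefore be narrower than those the counts came from. For Dlk1, with single-digit counts, the length ran from 1703 to 879 nt, so its TPM is uncertain beyond its counting error.

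Genes that act on the cluster were mostly expressed. Of 18 regulators of the imprint, 16 had a mean TPM of at least 1. Trim28, the corepressor recruited to methylated imprints, had 172.7 ± 69.9 TPM (SD, n = 3). Zfp57 and Zfp445, the zinc finger proteins that bring it there, had 21.9 ± 3.76 and 15.2 ± 3.12 TPM. Dnmt1 and Uhrf1, which copy methylation at replication, had 14.5 ± 4.36 and 37.3 ± 8.87 TPM. Tet1 and Tet2, which oxidize it, had 47.2 ± 17.3 and 39.0 ± 9.63 TPM, and Tet3, of the same family, 1.09 ± 0.465 TPM. Tet3 passed the limit only in the mean, with 0.59 TPM in replicate 3. The de novo methyltransferases Dnmt3a and Dnmt3b had 4.73 ± 0.749 and 3.30 ± 0.510 TPM, and their cofactor Dnmt3l 7.42 ± 2.12 TPM. The genes under the limit were Dppa3, a protector of maternal methylation, at 0.47 ± 0.062 TPM, and Aff3, which binds the control region, at 0.197 ± 0.177 TPM. Ezh2, Eed, Suz12 and Jarid2 of Polycomb complex PRC2 ran from 18.7 to 50.6 TPM in the mean.

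Of 8 genes flanking the cluster, 5 reached a mean TPM of 1, led by Hsp90aa1 at 905.7 ± 56.1 TPM. On the side of Dlk1, Yy1 and Wars had 8.89 ± 1.85 and 11.7 ± 3.37 TPM, while Slc25a29, Wdr25 and Begain had 0.017 ± 0.015, 0.813 ± 0.188 and 0.187 ± 0.170 TPM. On the side of Dio3, Ppp2r5c and Dync1h1 had 33.6 ± 5.20 and 11.9 ± 5.04 TPM. Of 10 Notch receptors and ligands, the relatives and partners of Dlk1, 6 reached a mean of 1 TPM, with Notch1 highest at 3.73 ± 2.92 TPM. In replicate 3 alone Notch1 had 0.80 TPM, and only Jag2 (1.62 TPM) and Notch4 (1.09 TPM) of the list reached 1. Dlk2, the closest relative of Dlk1, had 0 counts. Of 7 thyroid hormone genes, Rxra (2.15 ± 0.62 TPM) and Thra (1.45 ± 0.298 TPM) reached 1, and the deiodinases Dio1 and Dio2 had 0 counts. Of 8 retrotransposon-derived relatives of Rtl1, 1 reached that level, Peg10 at 5.78 ± 2.85 TPM, itself paternally expressed. All 7 small RNA particle genes did, from Dgcr8, of the microRNA processor, at 7.83 ± 1.40 TPM to Nop56, of the C/D box snoRNA particle, at 146.4 ± 10.3 TPM. These lists were read as counts beside the 44.1% of protein-coding genes at that level, with no test. By mean TPM, the shares of the thyroid hormone genes and of the relatives of Rtl1 lay below it. Those of the regulator, flanking, Notch and small RNA particle lists lay above it, the Notch share with the limit given for replicate 3.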

How the data were processed

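RNA-seq of 3 E14 replicates was analysed. Per the labels' protocols, total RNA was treated with DNase and cleared of rRNA before directional library preparation. The submitters' processing notes name STAR, RSEM and mm10. Versions, annotation release and strand setting are not given in the sources used here. The authors deposited estimated counts per gene without normalization, TPM scaled by effective length, FPKM (unused) and, per the file headers, other columns of length and effective length in nt.

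Gene names and coordinates came from GENCODE vM21 (GRCm38), where 55227 of 55487 IDs matched and 260 did not. Sequences are RefSeq's (GRCm38.p6); 5 of the 6 members had a promoter record. Counts were rounded for edgeR 4.0.16 (TMM, filterByExpr, intercept-only design, goodness-of-fit to trended dispersion, Benjamini-Hochberg), tested on simulated data. Other steps used Python 3.11.15. Log values are log2(TPM + 1), the TPM limit is 1 and the floor is 3 counts. A floor is 0.263, 0.464 and 0.518 CPM in replicates 1, 2 and 3.

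Members and lists were chosen with earlier results of these data known. Named genes are the members, their neighbours in the cluster, list genes and lincRNA genes nearest in level; the 5 snoRNA and 5 miRNA genes of the cluster with the highest counts were to be named, of which 3 had any count. Printed sequences are the promoters of Meg3 and Dlk1 and microRNAs of the genes with counts; those inside Rtl1 were added later.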

Additional observations from a re-analysis of the deposited data

How the results depend on the processing

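The 6 results were recomputed under 37 alternatives, of which 10 were labelled as moving the value and none as reversing it. Only the differences between members have a direction that could reverse. The other results are counts of genes. The difference between noncoding and coding members, 4.75, was 6.84 at a pseudocount of 0.1, 7.01 on CPM, 5.85 on TPM recomputed without genes of effective length under 100 nt and 5.27 when each side was averaged. It ran from 4.53 to 4.997 with 1 replicate left out. With CPM, Rian minus Meg3 became 2.06 and Mirg minus Meg3 became -2.001, on a scale without length. With a TPM limit of 0.1, 5 of the 6 members passed in place of 3. Those added were Dlk1 and Dio3, at 3 to 9 counts per replicate. The share of all genes at that limit was not taken, so this count says little about the members. Genes varying between replicates numbered 232 of 12577, and 89, 63 and 93 without replicates 1, 2 and 3, fits with fewer samples. They numbered 231 with DESeq2 size factors, 289 without a filter and 234 with a common dispersion. Of these, 231, 184 and 213 were among the 232 of the main fit. Without replicates 1, 2 and 3, 87, 58 and 62 of the genes called were among them. None of the 5 noncoding genes was called under any of these fits, with adjusted p-values from 0.923 to 1.00. The count of 0 small RNA genes past the floor held under every alternative tried. None of these could have changed it, because no such gene had more than 1 count in any replicate. No paired analysis was possible because no second group shares the replicate numbers. Differences between members were taken within each library. Depth limits the coding members: at 3 to 9 counts the order of Dlk1 and Dio3 cannot be told.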
